A study of Mus musculus with 7 samples.

Results

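The genes of the proteasome were examined in megakaryocyte (MK) preparations of mice that had received an infusion of serotonin (5-HT) or of saline. A gene was counted as a member when the array's annotation gave its probe a single symbol starting with Psma, Psmb, Psmc, Psmd or Psme and a digit, pseudogenes left out. This found 45 of 19057 genes, with 80 probes. Of these, 43 encode subunits, activators or assembly chaperones of the proteasome. The other 2, Psmc3ip and Psme3ip1, share only the start of the symbol: Psmc3ip acts in meiotic recombination and Psme3ip1 is a partner protein of the activator PA28gamma. The cells came from the femurs of male C57BL/6J mice, 10 to 12 weeks old and weighing 25 to 30 g, and the labels name no genetic change. Osmotic pumps under the skin delivered 5-HT (25.8 mM, 1.66 µg/kg/h, 4 samples) or saline (3 samples) for 24 h. Each sample was a pool of 3 to 4 mice, enriched on Percoll and with magnetic beads for CD41, a surface integrin of MKs and platelets, and read on 1 Illumina mouse array. A further saline sample, which the study set aside as an outlier, was not analysed here.

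The proteasome degrades proteins marked with ubiquitin. Its barrel, the 20S core, has outer rings of alpha subunits and inner rings of beta subunits, and the beta1, beta2 and beta5 subunits cut the substrate. A 19S particle caps the barrel: its ATPase ring unfolds substrates, and its other subunits bind ubiquitin and remove it. Interferon induces alternative catalytic subunits, encoded by Psmb9, Psmb10 and Psmb8, which take the places of beta1, beta2 and beta5 to form the immunoproteasome, known for making peptides for class I antigen presentation and abundant in blood cells. In MKs and platelets, proteasome activity is needed for normal platelet production and lifespan.

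The deposited values are log2 signals, in which 1 unit is a doubling, with the same median over all probes (6.68) on every array. Genes with a mean of 7.5 or more over the 7 arrays were tested with limma, whose moderated standard errors (SE) borrow information across genes. This limit kept 5428 genes, 34 of them members, and all fold changes below are log2 values of 5-HT minus saline. The arrays did not part by treatment. The median signal of the genes tested was 9.43, 8.28, 8.96 and 9.03 in 5-HT replicates 1 to 4, against 8.99, 8.15 and 8.32 in saline replicates 1 to 3, so that saline replicate 1 lay with the brighter 5-HT arrays and 5-HT replicate 2 with the dimmer saline arrays. The median log2 fold change of all genes tested was 0.42, and the members are read against it. Of 10 MK markers, 8 were measured and 1 of these, Itgb3, was below the limit. Their summed unlogged signal was 10425 to 41596 in the 5-HT arrays and 10807 to 40335 in the saline arrays, highest in 5-HT replicates 1 and 4 and saline replicate 1. Neutrophil markers, 9 of 9 measured, summed to between 208787 and 242115 in the 5-HT arrays and between 172171 and 220479 in the saline arrays, so both kinds of transcript were present in every sample. For 2 of the 9, Ltf and Ngp, every 5-HT array lay above every saline array, as in 6.28% of all genes tested. The groups overlapped for the other neutrophil markers. The sums of 2 eosinophil markers (1799 to 17411 in the 5-HT arrays, 564 to 1352 in the saline arrays, Epx below the limit) were higher in every 5-HT array. The 4 monocyte and macrophage markers measured of 6 gave 6128 to 12169 in the 5-HT arrays and 3551 to 6984 in the saline arrays. The groups did not overlap for Ly6c1, which gave most of the sum, and overlapped for Csf1r and Adgre1, while Ccr2 was below the limit. The 3 erythroid markers measured of 5 gave 2867 to 13571 in the 5-HT arrays and 7934 to 15715 in the saline arrays. Of these, Klf1 was below the limit. The 2 B cell markers measured of 4 gave 892 to 2731 in the 5-HT arrays and 853 to 1274 in the saline arrays, with Ms4a1 below the limit, and all 3 T cell markers were below it. The part of these cell types in the values below was not tested. In such bulk samples, fewer cells of a type and less RNA per cell cannot be told apart.

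In the deposited values, the fold changes of the proteasome genes lay close to those of the other genes. Their median log2 fold change was 0.37, beside 0.42 for all genes tested, and 13 of the 34 lay above 0.42, a value that splits all genes evenly by construction. After quantile normalization the medians were -0.06 and 0.08, and 6 of the 34 members lay above that of all genes. The members were brighter than most genes tested, with a median of the mean log2 signals of 10.80, beside 8.72. The log2 fold change was above 0 for 33 of 34 members, and for 91.3% of all genes, but for only 13 members after quantile normalization and 12 after each array was scaled to the median of its genes tested. At an adjusted p under 0.05 limma called 0 of the 34 members and 0% of all genes. A looser threshold, named unadjusted here, took a fold change over 1.5 together with p under 0.05 before adjustment. It called 1 member as higher in 5-HT, which is 2.94% of the members, where 5.71% of all genes were called, and as lower it called 0 members and 0.0184% of all genes. Over all genes it called 310 as higher and 1 as lower, a split that became 65 and 92 after quantile normalization and 52 and 129 after scaling. At p under 0.05 before adjustment, whatever the fold, it was again 1 member, and 5.73% of all genes. In 1 member, Psmb9, every 5-HT array lay above every saline array, as in 6.28% of all genes, and in 0 members every 5-HT array lay below, as in 0.129% of all genes. These shares are close to the background or under it. The adjusted p-values of the members in limma were 0.563 to 0.909, and their standard errors 0.36 to 0.45 on the log2 scale.

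**Figure D1:**
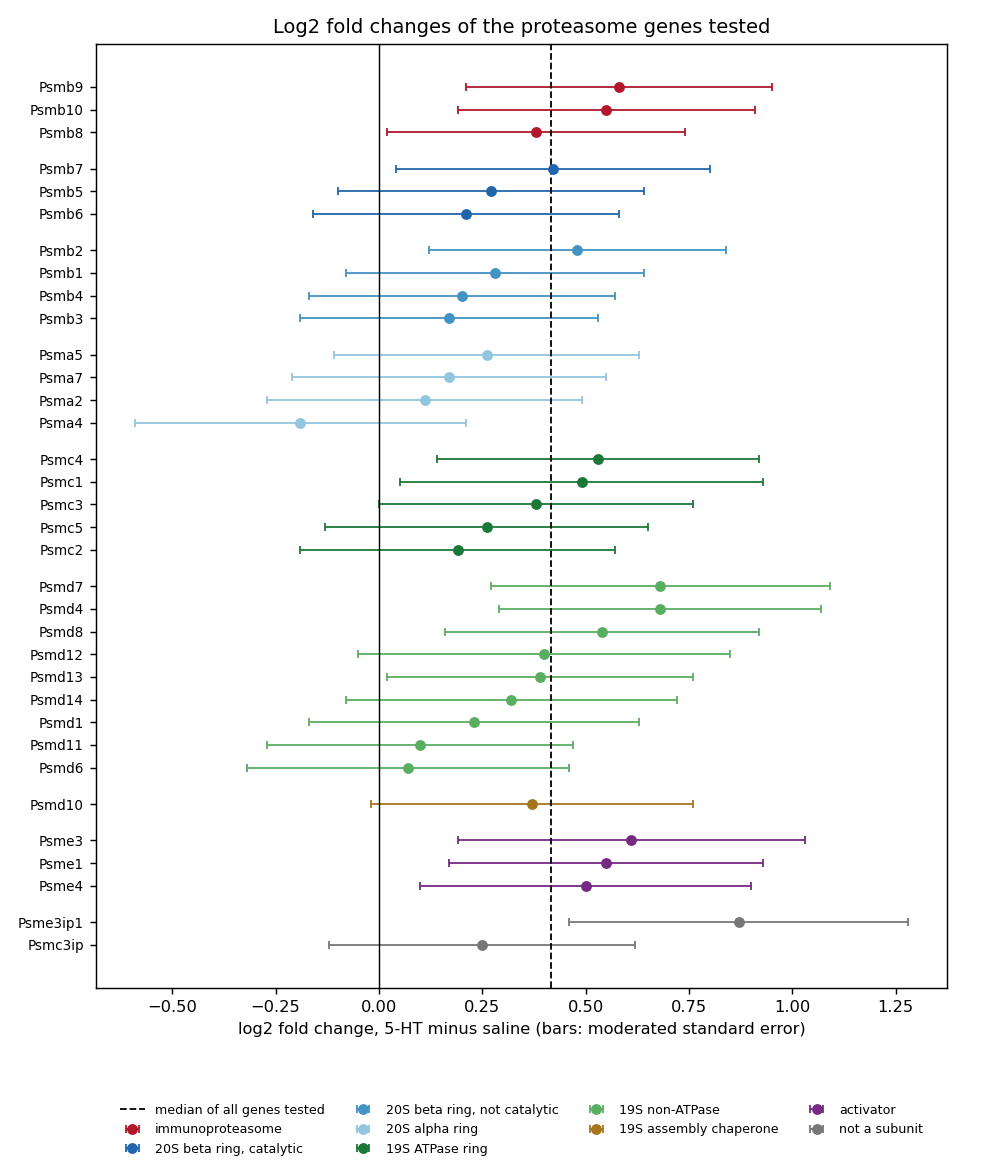
Log2 fold changes (5-HT minus saline, x axis) of the 34 proteasome genes tested, grouped by role (y axis); points are limma estimates from 4 5-HT and 3 saline arrays and bars their moderated standard errors. The dashed line is the median of all genes tested, 0.42, and the members lie on both sides of it, from -0.19 for Psma4 to 0.87 for Psme3ip1.

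Among the immunoproteasome subunits, Psmb9 (beta1i) stood out by its separation. Its log2 signal was 11.58, 10.92, 11.03 and 11.08 in 5-HT replicates 1 to 4, against 10.37, 10.59 and 10.77 in saline replicates 1 to 3. The groups did not overlap, but the gap between the lowest 5-HT array and the highest saline array was smaller than the SD of either group. The means were 11.15 ± 0.29 (SD, n = 4) in the 5-HT arrays and 10.58 ± 0.20 (SD, n = 3) in the saline arrays, a log2 fold change of 0.58 (SE 0.37, adjusted p = 0.563 from limma). Psmb10 (beta2i) had log2 signals of 11.02, 10.25, 10.68 and 10.74 in the 5-HT arrays, against 10.26, 10.07 and 10.05 in the saline arrays. Only 5-HT replicate 2, at 10.25, fell under the highest saline array, at 10.26. Its log2 fold change was 0.55 (SE 0.36, adjusted p = 0.563 from limma). Psmb8 (beta5i) was dimmer, at 8.70, 8.16, 8.18 and 8.62 in the 5-HT arrays, against 8.20, 8.09 and 7.82 in the saline arrays. Here 5-HT replicates 2 and 3 lay just under saline replicate 1, and the log2 fold change was 0.38 (SE 0.36). In all 3 immunoproteasome genes 5-HT replicate 1 was the highest and 5-HT replicate 2 the lowest 5-HT array. Relative to the median fold change of all genes, the values were 0.16 for Psmb9, 0.13 for Psmb10 and -0.04 for Psmb8, and after quantile normalization or scaling to the median of the genes tested, the groups overlapped for Psmb9 too. A further probe of Psmb10 gave a log2 fold change of 0.36 and one of Psmb8 gave 0.13.

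Psmb9 (chr17:34182030-34187330) and Psmb8 (chr17:34198195-34201454) lie close together in the class II region of the major histocompatibility complex, beside the peptide transporter genes. Psmb10 lies at chr8:105935728-105938392 and Psmb5 at chr14:54614120-54617995. The 150 bases before the transcript start of these genes and of Psmb5 are shown, because the immunoproteasome genes are known targets of interferon signalling and the constitutive genes of the transcription factor Nfe2l1. The sequences are from RefSeq (GRCm38.p6), 5′ to 3′ on the gene's strand, with matches to any of 4 motifs on either strand in capitals.
Psmb9, chr17:34187331-34187480, minus strand: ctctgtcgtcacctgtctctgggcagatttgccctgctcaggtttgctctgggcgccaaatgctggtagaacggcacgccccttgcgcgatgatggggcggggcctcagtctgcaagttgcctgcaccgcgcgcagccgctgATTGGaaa
Psmb8, chr17:34198045-34198194, plus strand: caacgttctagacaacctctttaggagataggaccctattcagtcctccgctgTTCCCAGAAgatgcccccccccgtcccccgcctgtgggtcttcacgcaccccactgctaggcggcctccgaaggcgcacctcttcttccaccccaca
Psmb10, chr8:105938393-105938542, minus strand: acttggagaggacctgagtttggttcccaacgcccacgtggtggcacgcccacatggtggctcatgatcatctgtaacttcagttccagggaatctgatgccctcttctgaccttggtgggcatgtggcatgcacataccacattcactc
Psmb5, chr14:54617996-54618145, minus strand: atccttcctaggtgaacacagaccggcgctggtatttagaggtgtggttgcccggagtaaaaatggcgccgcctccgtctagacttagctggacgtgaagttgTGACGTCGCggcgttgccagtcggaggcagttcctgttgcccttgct
The motifs searched were the antioxidant response element core TGACNNNGC, which Nfe2l1 binds, the interferon-stimulated response element core (GAAA, any 2 bases, GAAA), the interferon gamma activated site core TTCNNNGAA and the CCAAT box CCAAT. The capitals mark a CCAAT box on the opposite strand in Psmb9, an activated site core in Psmb8 and an antioxidant response element core in Psmb5, and each printed window held at most 1 match. Windows were listed for 38 of the 45 members. Members were counted as genes with a match in any of their windows, while the background shares are of single windows, so the units differ. The antioxidant response element core was present in 3 of the 38 (7.89%, Psmb5, Psmb6 and Psmd9) and in 6.80% of all 32851 windows of this length. The CCAAT box was present in 12 (31.6%) and in 24.5% of all windows. The activated site core was present in 1 member, Psmb8, and in 4.09% of all windows, and the interferon-stimulated element core in 1, Psmd4, and in 1.59%. These matches of letters are a description only.

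By the probes used, the constitutive catalytic subunits had smaller estimated fold changes than their immunoproteasome counterparts, as estimates whose SEs overlap. The order depended on the probe. The further probe of Psmb8 (0.13) lay under Psmb5. That of Psmb10 (0.36) lay under the Psmb7 probe used, but over the further Psmb7 probes at 0.09 and 0.14. Psmb6 (beta1, caspase-like) had log2 signals of 11.38, 10.71, 10.62 and 11.27 in the 5-HT arrays, against 10.64, 10.75 and 10.97 in the saline arrays, and a log2 fold change of 0.21 (SE 0.37). Psmb5 (beta5, chymotrypsin-like) had 10.57, 10.25, 9.67 and 10.54 in the 5-HT arrays, against 9.84, 9.98 and 10.14 in the saline arrays, and a log2 fold change of 0.27 (SE 0.37). Psmb7 (beta2, trypsin-like) had 11.78, 11.10, 10.94 and 11.69 in the 5-HT arrays, against 10.83, 10.68 and 11.36 in the saline arrays, and a log2 fold change of 0.42 (SE 0.38), equal to the median of all genes. The groups overlapped for all 3. In each of them 5-HT replicate 3 was the lowest 5-HT array and saline replicate 3 the highest saline array, while 5-HT replicate 3 was the lowest in none of the immunoproteasome genes. Of 3 further Psmb7 probes, 1 gave a log2 fold change of 0.44 and the others 0.09 and 0.14. For the probe at 0.44 the order was turned: 5-HT replicate 3 was its highest 5-HT array (11.63) and saline replicate 3 its lowest saline array (10.20). The pattern of Psmb7 over the arrays, and its difference from Psmb10, thus depend on the probe.

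To compare each immunoproteasome subunit with the one it replaces, their log2 difference was taken within each array, which cancels a shift of the whole array. Since the levels of different probes cannot be compared, only the change of this difference between groups is read. Psmb9 minus Psmb6 was 0.20, 0.21, 0.41 and -0.19 in the 5-HT arrays, against -0.27, -0.16 and -0.20 in the saline arrays. In 3 of 4 5-HT arrays it was above every saline array, while 5-HT replicate 4 lay among the saline values. The means were 0.16 ± 0.25 (SD, n = 4) in the 5-HT arrays and -0.21 ± 0.06 (SD, n = 3) in the saline arrays, a change of 0.37 (two-sided exact permutation test, p = 0.0857, and adjusted p = 0.257 over the 3 pairs compared). Psmb8 minus Psmb5 averaged -1.84 ± 0.25 (SD, n = 4) in the 5-HT arrays and -1.95 ± 0.34 (SD, n = 3) in the saline arrays, a change of 0.11 (exact permutation test, p = 0.743). Psmb10 minus Psmb7 averaged -0.70 ± 0.31 (SD, n = 4) in the 5-HT arrays and -0.83 ± 0.42 (SD, n = 3) in the saline arrays, a change of 0.12 (exact permutation test, p = 0.686). No pair passed the threshold used for the adjusted p of the genes. The smallest p that 4 against 3 arrays allow is 0.0286 before adjustment. After adjustment over the 3 pairs, a single pair could not have passed alone even at that p. The lack of a pass therefore cannot decide whether any single pair changed. The changes of the pairs with Psmb8 and Psmb10 turned to -0.08 and -0.11 without saline replicate 3, and to -0.01 and -0.02 without 5-HT replicate 3. After quantile normalization the changes were 0.37 for Psmb9 minus Psmb6, 0.26 for Psmb8 minus Psmb5 and 0.06 for Psmb10 minus Psmb7.

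**Figure D2:**
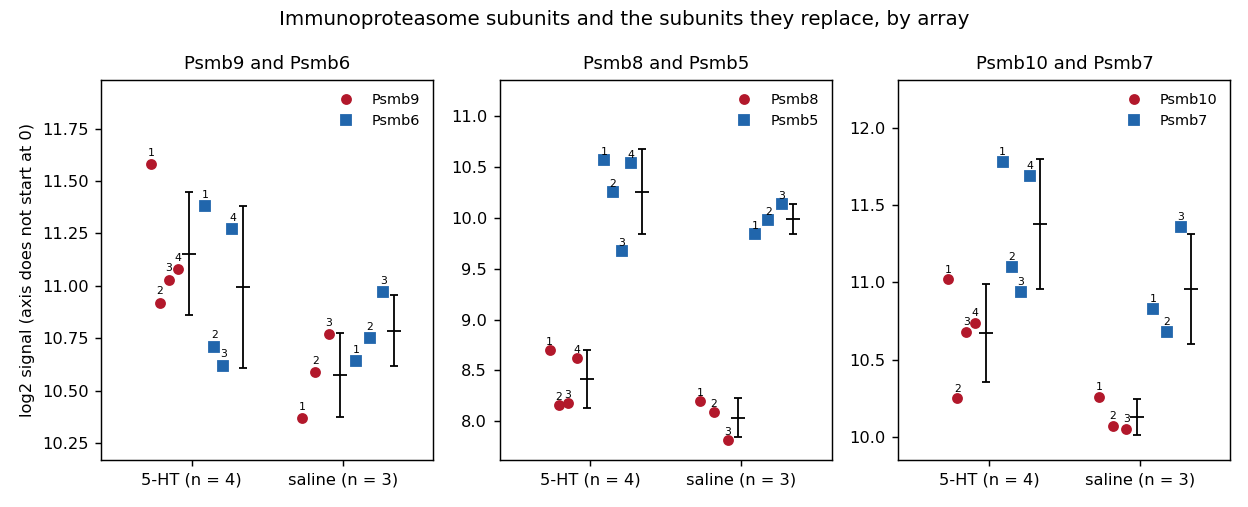
Log2 signal (y axis) of each immunoproteasome subunit (circles) and the constitutive subunit it replaces (squares) in 4 5-HT and 3 saline arrays (x axis); numbers are replicates, horizontal ticks means and bars SDs. Psmb9 lies between 10.92 and 11.58 in the 5-HT arrays, above its 10.37 to 10.77 in the saline arrays, while the groups of every other gene shown overlap.

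The other subunits of the 20S core had the lowest median fold changes of the role classes. All 4 tested alpha subunits lay under the median of all genes, with a median log2 fold change of 0.14 over Psma2, Psma4, Psma5 and Psma7. Psma4 (alpha3) was the single tested member with a fold change below 0. Its log2 signal was 11.67, 10.31, 10.23 and 10.83 in the 5-HT arrays, against 11.11, 10.83 and 10.90 in the saline arrays, so 5-HT replicates 2 and 3 were under every saline array, 5-HT replicate 4 was level with the lowest of them and 5-HT replicate 1 was above them all. The log2 fold change was -0.19 (SE 0.40), and 3.8% of all genes tested had a value as low. Leaving out 1 array gave -0.49 (without 5-HT replicate 1) to -0.01 (without 5-HT replicate 3). Psma5 (alpha5) had the highest value of the ring, 0.26 (SE 0.37), with 12.65, 11.85, 12.01 and 12.45 in the 5-HT arrays and 12.02, 11.84 and 12.09 in the saline arrays. In the inner rings, Psmb2 (beta4) had 12.59, 12.00, 12.51 and 12.63 in the 5-HT arrays, against 12.07, 11.82 and 11.96 in the saline arrays, a log2 fold change of 0.48 (SE 0.36). It overlapped only through 5-HT replicate 2 and saline replicate 1. Psmb3 (beta3) had 12.24, 11.79, 11.85 and 12.14 in the 5-HT arrays, against 11.57, 11.86 and 12.07 in the saline arrays, a log2 fold change of 0.17 (SE 0.36), and Psmb1 and Psmb4 lay between them. Over the 11 tested constitutive core subunits the median was 0.21, with 2 above the median of all genes, while the 3 immunoproteasome subunits had a median of 0.55, with 2 above it. As the members were chosen with results known, this contrast of medians has no test.

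The 19S particle followed the general level of the arrays more closely than the core. For the ATPase ring, Psmc4 (Rpt3) had 11.66, 10.54, 11.68 and 11.48 in the 5-HT arrays, against 11.30, 10.44 and 10.70 in the saline arrays, a log2 fold change of 0.53 (SE 0.39, adjusted p = 0.563 from limma). Psmc2 (Rpt1) had 12.42, 11.20, 11.68 and 11.76 in the 5-HT arrays, against 11.87, 11.33 and 11.51 in the saline arrays, a log2 fold change of 0.19 (SE 0.38). In both, 5-HT replicate 2 lay among or under saline replicates 2 and 3. Among the non-ATPase subunits, the ubiquitin receptor Psmd4 (Rpn10) had 12.42, 11.26, 12.16 and 12.11 in the 5-HT arrays, against 11.61, 10.92 and 11.38 in the saline arrays. Its log2 fold change, 0.68 (SE 0.39, adjusted p = 0.563 from limma), was the highest of the 19S subunits together with that of Psmd7 (Rpn8, 0.68, SE 0.41). A further probe of Psmd7 above the limit gave -0.24. Psmd6 (Rpn7) had the lowest value, 0.07 (SE 0.39), with 8.93, 8.05, 7.74 and 8.65 in the 5-HT arrays and 8.51, 8.13 and 8.18 in the saline arrays. Over the 14 tested subunits the median was 0.38 on the log2 scale, with 5 above the median of all genes. Psmd10 (gankyrin), a chaperone of ATPase ring assembly, had 10.40 in 5-HT replicate 1 and 9.19 to 9.44 in the other 5-HT arrays, against 8.92 to 9.36 in the saline arrays, and a log2 fold change of 0.37 (SE 0.39), or 0.10 without 5-HT replicate 1.

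**Figure D3:**
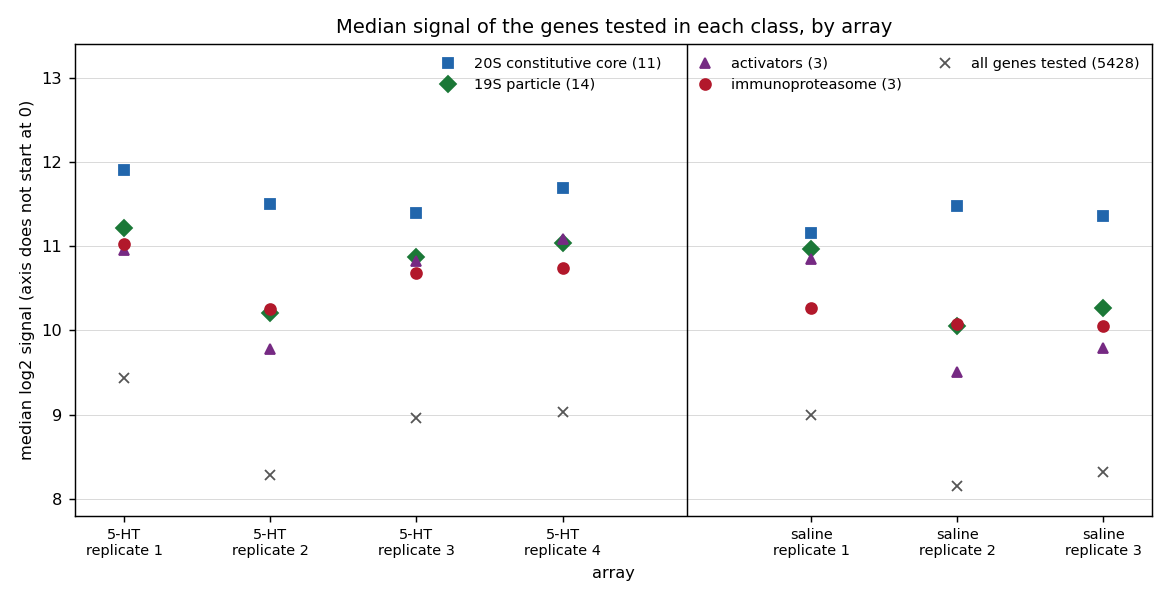
Median log2 signal (y axis) of the tested genes of the 20S constitutive core, the 19S particle, the activators, the immunoproteasome and all genes, in each array (x axis, 5-HT left of saline); numbers of genes are in the legend. In saline replicate 1 the 19S median (10.97) lies near those of 5-HT replicates 3 and 4, while the core median (11.15) is the lowest of the 7 arrays.

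The difference between core and cap showed among samples of the same treatment. Saline replicate 1 was the highest saline array for 12 of the 14 tested 19S subunits and for 3 of the 11 constitutive core subunits, where it was so for 81.1% of all genes tested. It exceeded the mean of the other saline arrays by a median of 0.45 for the 19S particle, while for the core it lay below by a median of -0.15, and all genes had a median of 0.65. The extremes were Psmc1 (Rpt2), at 1.54, and Psmd13 (Rpn9), at -0.47. By role, this median was 0.68 for the ATPase ring, 0.35 for the non-ATPase subunits and 0.15 for the alpha subunits. It was -0.22 for the constitutive catalytic beta subunits and -0.17 for the beta subunits that are not catalytic. The contrast of core and cap has no test. Likewise 5-HT replicate 2 was the lowest 5-HT array for 12 of 14 19S subunits, 4 of 11 core subunits and 79.9% of all genes, and for the core the lowest was most often 5-HT replicate 3, in 7 of 11. The median log2 signal of the core ranged from 11.39 to 11.90 in the 5-HT arrays and 11.15 to 11.48 in the saline arrays. That of the 19S particle ranged from 10.20 to 11.22 in the 5-HT arrays and 10.05 to 10.97 in the saline arrays. The summed signal of the MK markers was 41596, 10425, 18467 and 38238 in 5-HT replicates 1 to 4, against 40335, 11751 and 10807 in saline replicates 1 to 3. It was highest in the same 3 arrays as the 19S median. The median of all genes tested was highest there too, at 9.43 and 9.03 in 5-HT replicates 1 and 4 and 8.99 in saline replicate 1. The part of the MK marker sum in these differences was not tested.

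**Figure D4:**
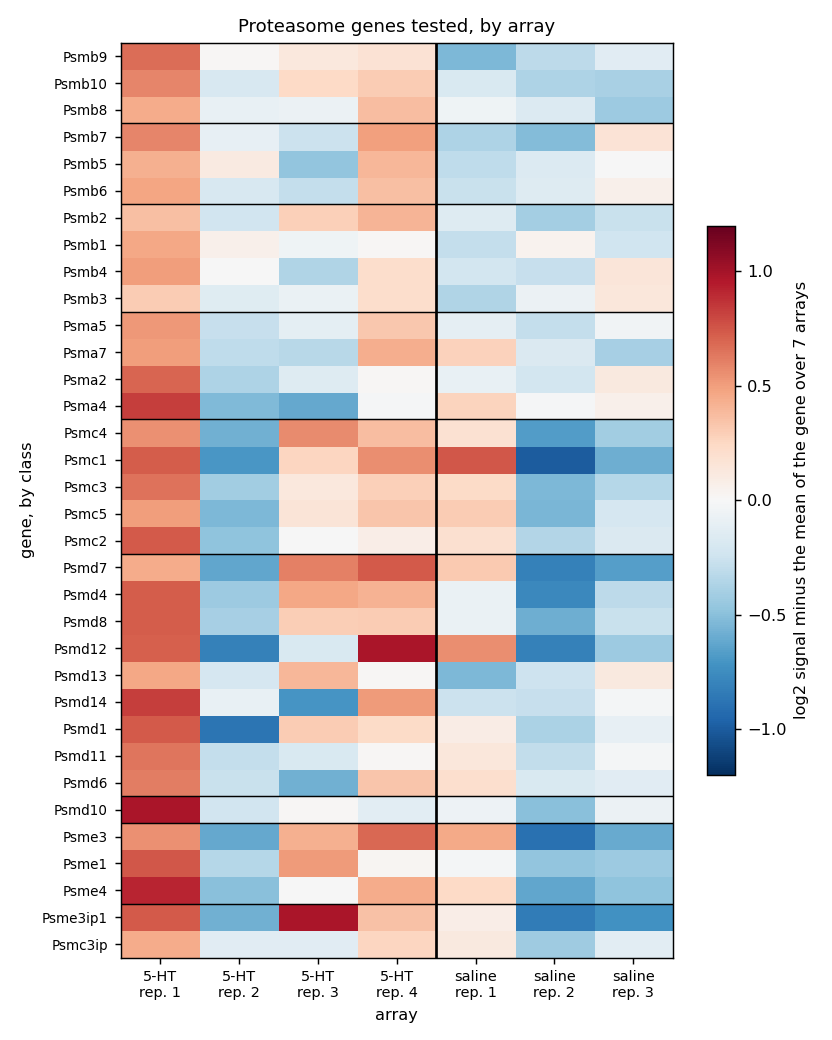
Log2 signal of the 34 proteasome genes tested (rows, by class, in the order of the fold change plot), as the difference from the mean of each gene over 7 arrays (colour scale), in 4 5-HT arrays (left) and 3 saline arrays (right). 5-HT replicate 1 is the highest 5-HT array for 28 of the 34 genes (82.4%, beside 70.9% of all genes tested), and saline replicate 1 is high for Psmc1, Psmd12 and Psme3 but low for Psmb9 and Psmd13.

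The activators, which open the core in place of the 19S cap, had log2 fold changes of 0.50 to 0.61 for the 3 of 4 tested, above the median of all genes. After quantile normalization Psme1 (0.07) and Psme4 (0.06) lay just under that median, then 0.08. Psme1 (PA28alpha), which like the immunoproteasome is induced by interferon gamma, had 12.27, 11.18, 12.04 and 11.55 in the 5-HT arrays, against 11.50, 11.05 and 11.09 in the saline arrays, a log2 fold change of 0.55 (SE 0.38, adjusted p = 0.563 from limma). 5-HT replicate 2 was the single 5-HT array under saline replicate 1. A further probe of Psme1 gave 0.92. Psme3 (PA28gamma), the nuclear activator, had 10.95, 9.78, 10.82 and 11.09 in the 5-HT arrays, against 10.85, 9.50 and 9.79 in the saline arrays, a log2 fold change of 0.61 (SE 0.42). Psme4 (PA200) had 10.25, 8.83, 9.33 and 9.78 in the 5-HT arrays, against 9.57, 8.71 and 8.85 in the saline arrays, a log2 fold change of 0.50 (SE 0.40). Both showed saline replicate 1 among the higher 5-HT arrays, and without it the values were 1.02 for Psme3 and 0.77 for Psme4. They were 0.34 for Psme3 without saline replicate 2 and 0.27 for Psme4 without 5-HT replicate 1. The 1 member called at the unadjusted threshold was no subunit: Psme3ip1, the partner of PA28gamma, had 9.86, 8.55, 10.10 and 9.47 in the 5-HT arrays, against 9.20, 8.28 and 8.40 in the saline arrays, a log2 fold change of 0.87 (SE 0.41, unadjusted p = 0.0467, adjusted p = 0.563 from limma). It lost this call after quantile normalization, after scaling, with normexp correction, with the mean of its probes, with no limit on the mean signal, with trend and robust eBayes, and without 5-HT replicate 1, 3 or 4 or saline replicate 2 or 3. The groups of Psme3ip1 overlapped in the deposited values, but not after quantile normalization, beside 6.37% of all genes. Nor did they overlap after scaling, where it was the only such member, beside 5.97% of all genes. Psmc3ip had a log2 fold change of 0.25 (SE 0.37), with 7.99 to 8.57 in the 5-HT arrays and 7.70 to 8.24 in the saline arrays.

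Of the 45 members, 11 had mean signals under 7.5 and were not tested, since they lay near the median of all probes: Psma1, Psma3, Psma6, Psma8, Psmb11, Psmc6, Psmd2, Psmd3, Psmd5, Psmd9 and Psme2. Their means were between 6.55 for Psma6 and 7.18 for Psmd9. They include Psmb11, the subunit of thymic epithelium, and Psma8, the testis form of an alpha subunit, but also subunits that every 20S core or 19S particle holds, so a low signal of a probe here does not measure absence of the gene. Psme2 (PA28beta), the partner of Psme1 and likewise known as an interferon gamma target, had 7.29, 7.17, 6.88 and 7.06 in the 5-HT arrays, against 6.99, 6.86 and 6.93 in the saline arrays, and overlapped by 5-HT replicate 3 alone. For 27 members more than 1 probe was named, and 18 further probes of 14 members were above the limit. Of these, 17 had a fold change of the same sign as the probe used, and the differences were between -0.92 and 0.37 on the log2 scale.

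Genes that work with the proteasome were read from 3 lists. Of 20 assembly factors and partners, 14 were measured and 10 tested, 0 passed either threshold in limma, and the median log2 fold change was 0.34. The maturation factor Pomp had 11.98, 10.62, 11.50 and 11.55 in the 5-HT arrays, against 11.40, 10.37 and 10.73 in the saline arrays, a log2 fold change of 0.58 (SE 0.40). Nfe2l1, which drives proteasome genes when activity is low, had 9.76, 8.02, 9.76 and 9.37 in the 5-HT arrays, against 9.56, 8.04 and 8.41 in the saline arrays, a log2 fold change of 0.56 (SE 0.45), which was 0.24 without saline replicate 2 and 1.0 without saline replicate 1. In both, saline replicate 1 again lay among the 5-HT arrays. Of 15 genes of ubiquitin supply and delivery, 8 were measured and 6 tested, with a median of 0.55, and 1 was called as higher at the unadjusted threshold, as were 5.71% of all genes. This was Bag6, a chaperone that hands misfolded proteins to the proteasome, at 10.30, 9.39, 11.02 and 10.69 in the 5-HT arrays and 10.29, 9.15 and 8.78 in the saline arrays (log2 fold change 0.94, SE 0.44, adjusted p = 0.563 from limma), with saline replicate 1 level with 5-HT replicate 1. Its value was 0.63 without saline replicate 3 and 1.39 without saline replicate 1. Uba6, a ubiquitin-activating enzyme named here for its separation, was lower in every 5-HT array (8.77 to 9.20) than in every saline array (9.31 to 9.39). This held for 0.129% of all genes tested. Its log2 fold change was -0.46 (SE 0.36, adjusted p = 0.563 from limma), and its value under other processing is not given. Of 14 genes of class I antigen processing and its inducers, 13 were measured and 9 tested, 0 passed either threshold, and the median log2 fold change was 0.56. The peptide transporter Tap2 had a log2 fold change of 0.63 (SE 0.42) and the class I heavy chain H2-D1 one of 0.60 (SE 0.38). H2-D1 had 12.63, 11.70, 11.84 and 11.95 in the 5-HT arrays and 11.74, 11.03 and 11.53 in the saline arrays, and it overlapped by 5-HT replicate 2 alone, as did Psmb10.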

How the data were processed

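RNA from 7 samples of CD41-isolated marrow cells was measured on Illumina arrays. Per the methods, the authors read the scans in GenomeStudio, log-transformed the intensities and median-normalized them; the deposited values used here are log2 signals, and whether background was subtracted is not stated. The shift to 1 median leaves the spread of the arrays unequal. A deposited table of signals before normalization was not used, since its 14 value columns carry names that match no sample.

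Of 45281 probes, 34885 had 1 gene symbol and were used, while 18 with several symbols and 10378 with none in the annotation were not. The brightest probe stood for each gene. The identifiers of all 45 members matched the GRCm38.p6 gene table. Genes with a mean of 7.5 or more were tested with limma 3.58.1 (lmFit and eBayes, group as the only term) in R 4.3.3, with Benjamini-Hochberg adjustment over 5428 genes (5 residual and 18.9 prior degrees of freedom). The script was checked on simulated data. The number of arrays limits the precision. Per the extract protocol each sample was a pool of mice, and whether pools were prepared separately is not given in the sources used here, so p-values measure only the spread between these samples, which may be technical.

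The members and lists were chosen with earlier results of these data known. Values in every array are given for the catalytic subunits and Psme1, and for the members with the highest and lowest fold change of each role. From each list, up to 4 genes called at the unadjusted threshold are named, or otherwise the 2 with the largest fold change; other genes were named after their values were seen. Alternatives were quantile normalization, scaling to the median of the genes tested, normexp background correction (offset 50), no limit on the mean signal, the mean of a gene's probes or a further probe, eBayes with trend and robust, a replicate block, and leaving out arrays.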

Additional observations from a re-analysis of the deposited data

How the results depend on the processing

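Apart from the joint removal of arrays given below, no alternative called a member at an adjusted p under 0.05. The count of members called at the unadjusted threshold, 1 over all arrays, was 0 with normexp correction, without a limit on the mean signal and with trend and robust eBayes. Psme3ip1, the gene called, also lost its call after quantile normalization and after scaling, where Psma4 was called instead, as lower, and with the mean of a gene's probes, where Psme1 was. The count was 4 with the replicate block (Psmb9, Psmd4, Psme1 and Psme3ip1), where 22.6% of all genes passed with higher signal. Whether the replicate numbers pair the samples is not stated in the sources used here. The deviations of same-numbered samples correlated at 0.145, 0.684 and -0.247 across genes, and those of different-numbered samples at -0.722 to 0.581. These values do not settle it. No saline sample has number 4, so with the block 5-HT replicate 4 adds nothing to the fold changes. They equal those without that array. The block changed no call at an adjusted p under 0.05 among members, and Psmd6 was -0.03 with it, as without 5-HT replicate 4. Leaving out 1 array at a time, that count was 0 to 7 (0 without saline replicate 2 or 3 or 5-HT replicate 1, 3 or 4, 7 without 5-HT replicate 2, where 31.1% of all genes were called as higher, and 4 without saline replicate 1, where 27% were) and the count of members without overlap 1 to 10 (10 without 5-HT replicate 2, beside 31.2% of all genes, and 7 without saline replicate 1, beside 37.1%). In these fits the members' median was -0.23 (without saline replicate 1) to 0.00 from that of all genes, the pair changes were -0.08 to 0.26 for Psmb8 minus Psmb5, 0.28 to 0.48 for Psmb9 minus Psmb6 and -0.11 to 0.25 for Psmb10 minus Psmb7, Psmc2 ranged from -0.02 to 0.38 and Psmd6 from -0.13 to 0.27. In a fit without 1 saline array, 2 saline samples set that group's mean. Without overlap were 3 members after quantile normalization (Psma4, Psmc2 and Psme3ip1), beside 6.37% of all genes, and 2 without the limit (Psma6 and Psmb9), beside 5.35%. After scaling it was 1 member, Psme3ip1, beside 5.97%. Without the limit the median log2 fold change of all 19057 genes was 0.04, as most genes are then dim, and the members' median lay 0.22 above it. With the mean of a gene's probes, Psmb8 minus Psmb5 was -0.01. The median log2 fold change of all genes, 0.42, became 0.08 after quantile normalization and -0.02 after scaling to the median of the genes tested. The members above 0 were then 13 and 12 of 34. Among the genes given by name under the rule, those that turned below 0 after quantile normalization were Psmb5 -0.21, Psmb6 -0.27, Psmb7 -0.02, Psmd10 -0.07, Psmc2 -0.26, Psmd6 -0.27, Psma5 -0.19, Psmb3 -0.26, Psmc3ip -0.05, and after scaling Psmb8 -0.06, Psmb5 -0.17, Psmb6 -0.23, Psmb7 -0.02, Psmd10 -0.07, Psmc2 -0.25, Psmd6 -0.37, Psma5 -0.18, Psmb3 -0.27, Psmc3ip -0.19.

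Saline replicate 1 and 5-HT replicate 2 were also left out jointly, but since they were picked because their values lay with the other group, this is no independent test. It called 14 members at an adjusted p under 0.05 and 15 at the unadjusted thresholds, with 18 members without overlap, where 56.6%, 64.4% and 76.3% of all genes did so; the members' median was then -0.28 from that of all genes and Psma4 was 0.04. The cause of these changes was not tested.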

Other observations

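Among the members under the limit on mean signal, Psma6 (alpha1) had log2 signals of 6.55, 6.47, 6.46 and 6.49 in 5-HT replicates 1 to 4, against 6.56, 6.73 and 6.57 in saline replicates 1 to 3, all near the median of all probes, 6.68. Every 5-HT array lay below every saline array, and no fold change was tested.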
